A study of Mus musculus with 6 samples.

Results

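The 35 genes described here encode the enzymes that build cholesterol and fatty acids, with 4 of the regulators that set their transcription, and they were measured in ATM KO and vector control 4T1 cells. They were chosen by name, with earlier results of these data known. Of the 35, 34 were found by their symbol among the 13405 genes listed in all 6 libraries, and Msmo1 was found by its Ensembl gene ID under the older symbol Sc4mol. All 35 had a mean value of at least 10 and were tested. They comprise 4 regulators, 19 genes of the sterol branch (8 from acetyl units to squalene, 10 from squalene to cholesterol, and the sterol carrier Stard4) and 12 genes of the fatty acid branch.

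4T1 is a carcinoma line from the mammary gland of a Balb/c mouse. The series holds 3 libraries of ATM KO cells, knocked out for Atm, whose protein kinase responds to broken DNA, and 3 libraries of cells carrying a vector control, with no further treatment named. How the knockout was made, whether its libraries come from 1 clone or several, and whether the libraries of a group are separate cultures are not given in the sources used here, so a p-value here reflects only how much these libraries vary, and that variation may be technical. The values, called normalized counts below, are reads per gene after division by a factor that the authors set for each library. Each log2 difference is ATM KO minus vector control, taken from log2(value + 1), with its standard error (SE).

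Cells make both cholesterol and fatty acids from acetyl-CoA. The transcription factors SREBP-1 and SREBP-2, encoded by Srebf1 and Srebf2, sit in the endoplasmic reticulum membrane with their escort SCAP, and when sterols are scarce the escort carries them to the Golgi, where proteases free the part that enters the nucleus. INSIG-1 holds the escort back when sterols are plentiful. SREBP-2 is known mainly for driving sterol genes and the 1c form of SREBP-1 for driving fatty acid genes, both together with the factors NF-Y and Sp1, and carcinoma cells often run these pathways at a high rate.

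Most of the members lay lower in ATM KO than in vector control cells, and none of the differences passed a test adjusted over all genes. Of the 35 members, 32 (91.4%) had a log2 difference below 0, where 51.4% of the 12149 genes tested did, and 3 were above 0, where 48.6% of all genes were. In 11 members (31.4%) every ATM KO library lay below every vector control, where this held for 5.48% of all genes tested, and in 0 members did every ATM KO library lie above every vector control, where 5.7% of all genes did. The median log2 difference was -0.41 over the members and -0.009 over all genes tested. By limma, by edgeR's quasi-likelihood test and by DESeq2, 0 of 35 members passed an adjusted p of 0.05, where limma called 0% of all genes, edgeR 0% and DESeq2 0.691% (0.56% higher and 0.132% lower). At an unadjusted p under 0.05, limma had 10 members lower and 0 higher, where 1.39% of all genes were lower and 2.77% higher (4.16% in all). edgeR had 9 members lower and 0 higher, where 1.46% of all genes were lower and 2.84% higher (4.3% in all). DESeq2 had 10 lower and 0 higher, where 2.16% were lower and 3.75% higher (5.9% in all). A p that misses the threshold does not show that the groups were alike. Genes of a shared pathway can move together, as they did between the ATM KO libraries (below). The members in these counts are therefore not independent of each other.

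The libraries of a group were not alike, and that bears on each value below. Between 22494919 and 32341508 reads were assigned per library. Atm itself stood at 1959, 2219.8 and 1591 in ATM KO 1 to 3 and 1978, 1613 and 1519 in vector controls 1 to 3, so its mRNA was not lower and gives no check of the labels, as a knockout at the protein level need not lower the mRNA. Vector controls 2 and 3 lay close together (correlation of log2 values across genes 0.997), whereas vector control 1 lay apart from them (0.914). The libraries crossed group lines: ATM KO 2 and 3 correlated at 0.930, ATM KO 2 and vector control 1 at 0.965, and ATM KO 3 and vector control 2 at 0.961. The median gene differed by 0.60 on the log2 scale between vector control 1 and the mean of the other controls. Of 8 epithelial markers, Epcam, Cdh1, Krt8, Krt18, Krt19, Krt14 and Krt7 were present and Krt5 was at 0 in every library, with summed levels of 101687 to 138595 normalized counts in ATM KO libraries and 80526 to 115328 in vector controls. All 7 were higher in ATM KO cells by their means of log2 values, and Krt14, at 2223, 1369.9 and 2311 in ATM KO 1 to 3 and 149.9, 684 and 654 in vector controls 1 to 3, was the one in which the groups did not overlap. Of the other lists, 0 of 6 adipocyte markers, 1 of 5 immune markers (Cd68, 227 to 806 in ATM KO libraries and 300.7 to 1080.1 in vector controls), 3 of 6 fibroblast markers (summed at 344 to 754 in ATM KO libraries and 146 to 547 in vector controls) and 1 of 4 endothelial markers (Cdh5, at most 6.84 in ATM KO libraries and 11.7 in vector controls) were among the genes analysed. Their part in the results was not tested. In bulk RNA, fewer cells of a type and less RNA per cell cannot be told apart.

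**Figure D1:**
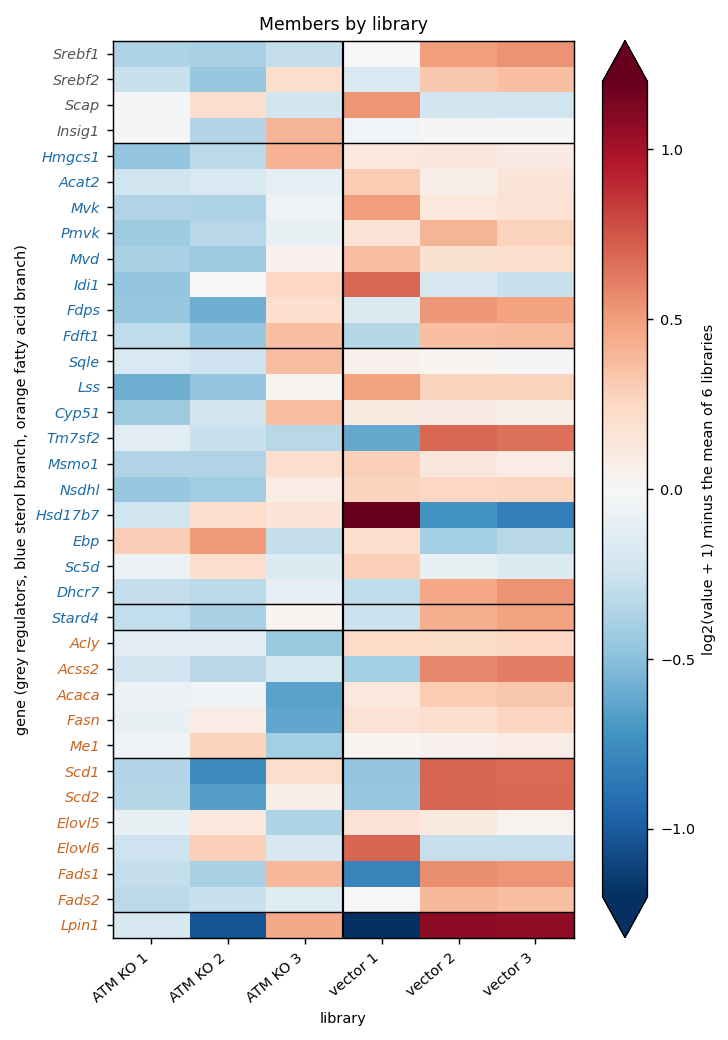
Deviation of each of the 35 genes (rows) from its own mean over 6 libraries (columns), on the log2(value + 1) scale, red above and blue below. Black lines part the regulators, the mevalonate segment, the steps after squalene, Stard4, fatty acid supply and synthesis, desaturation and elongation, and Lpin1. Blue prevails in the ATM KO libraries and red in the vector controls, with ATM KO 3 red for most of the sterol branch and vector control 1 blue for Lpin1, Fads1, Tm7sf2, Scd1, Scd2 and Acss2.

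The regulators differed among themselves. Srebf1 (chromosome 11, 60199089 to 60222581, minus strand, GRCm38), which encodes SREBP-1, had 3732, 3697 and 3956 normalized counts in ATM KO 1 to 3, against 4857, 6832 and 7018 in vector controls 1 to 3. Every ATM KO library lay below every control, and the ATM KO libraries were within a narrow band while vector control 1 was the lowest control. Its difference, a log2 difference of -0.70 (SE 0.18), was the lowest of the 35 and had a 95% interval from -1.13 to -0.26. It had an unadjusted p of 0.00721 by limma and an adjusted p of 0.999 by limma and 0.087 by DESeq2, and over all alternatives its adjusted p ranged from 0.087 to 1.00. Since Srebf1 has several start sites that give the 1a and 1c forms, a value per gene does not tell the forms apart.

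Srebf2, which encodes SREBP-2, had 8931, 7847 and 12468 normalized counts in ATM KO 1 to 3, against 9479.5, 13469 and 13834 in vector controls 1 to 3. ATM KO 3 lay among the controls and vector control 1 among the ATM KO libraries, so the groups overlapped, with a log2 difference of -0.34 (SE 0.24). Scap, the escort, had 4177, 4878 and 3642 normalized counts in ATM KO 1 to 3, against 6124, 3617 and 3590.1 in vector controls 1 to 3, and vector control 1 alone stood high. Insig1, which retains the escort and is itself a target of the SREBPs, had 3111, 2470.3 and 4179.7 normalized counts in ATM KO 1 to 3, against 3087, 3182 and 3115 in vector controls 1 to 3. Its controls were nearly equal while the ATM KO libraries scattered on both sides of them. The log2 differences of Scap and Insig1 were -0.033 (SE 0.25) and 0.023 (SE 0.21), smaller than their SE, and that of Scap turned to 0.22 without vector control 1 and to 0.0029 when the libraries were scaled to equal totals, while that of Insig1 turned to -0.17 without ATM KO 3.

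In the mevalonate segment all 8 members had log2 differences below 0, where 51.4% of all genes tested did, with a median of -0.43. In 4 of them every ATM KO library lay below every control, where this held for 5.48% of all genes tested. Mvk, mevalonate kinase (chromosome 5, 114444269 to 114460591, plus strand), had 907, 902 and 1119 normalized counts in ATM KO 1 to 3, against 1648, 1271 and 1321 in vector controls 1 to 3. Pmvk, the kinase of the next step, had 934, 999.6 and 1181 normalized counts in ATM KO 1 to 3, against 1410.0, 1663 and 1518 in vector controls 1 to 3. Mvd, the decarboxylase that makes isopentenyl diphosphate, had 817, 791 and 1113 normalized counts in ATM KO 1 to 3, against 1389, 1217 and 1244 in vector controls 1 to 3. In these 3 consecutive steps each ATM KO library lay below each control, with ATM KO 3 nearest to the controls, and the log2 differences were -0.53 (SE 0.19), -0.56 (SE 0.17) and -0.52 (SE 0.19). Acat2, a cytosolic thiolase that joins acetyl units at the entry of the pathway, had 2005, 2083 and 2186 normalized counts in ATM KO 1 to 3, against 2909, 2472 and 2629.8 in vector controls 1 to 3, also without overlap, and a log2 difference of -0.35 (SE 0.14).

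Hmgcs1, the HMG-CoA synthase, had 7199, 7952 and 13199.6 normalized counts in ATM KO 1 to 3, against 10852, 10880.0 and 10617 in vector controls 1 to 3. The controls were almost equal, ATM KO 1 and 2 lay below them and ATM KO 3 above them, so the log2 difference of -0.24 (SE 0.24) stands for libraries that went both ways. Fdps and Fdft1, which make farnesyl diphosphate and squalene, had log2 differences of -0.56 and -0.27 and were low in vector control 1 as well as in ATM KO 1 and 2. Of the exon bases of Fdft1, 18.3% also belong to the oppositely oriented Ctsb, and strand use in counting is not stated, so some of its reads could belong to Ctsb. Of the exon bases of Fdps, 26.7% also belong to Gm43738 on the same strand, so reads there cannot be told apart by strand. The same limit holds for Tm7sf2, which shares 12.1% with Vps51 on its strand. Scap (13.2%), Hmgcs1 (12.1%), Idi1 (9.22%) and Acss2 (9.12%) share exon bases with genes on the opposite strand, and some other members share less. Idi1, the isomerase, was the member with the lowest level, at 79.6, 110.4 and 132 in ATM KO 1 to 3 and 179, 95.8 and 91.4 in vector controls 1 to 3.

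**Figure D2:**
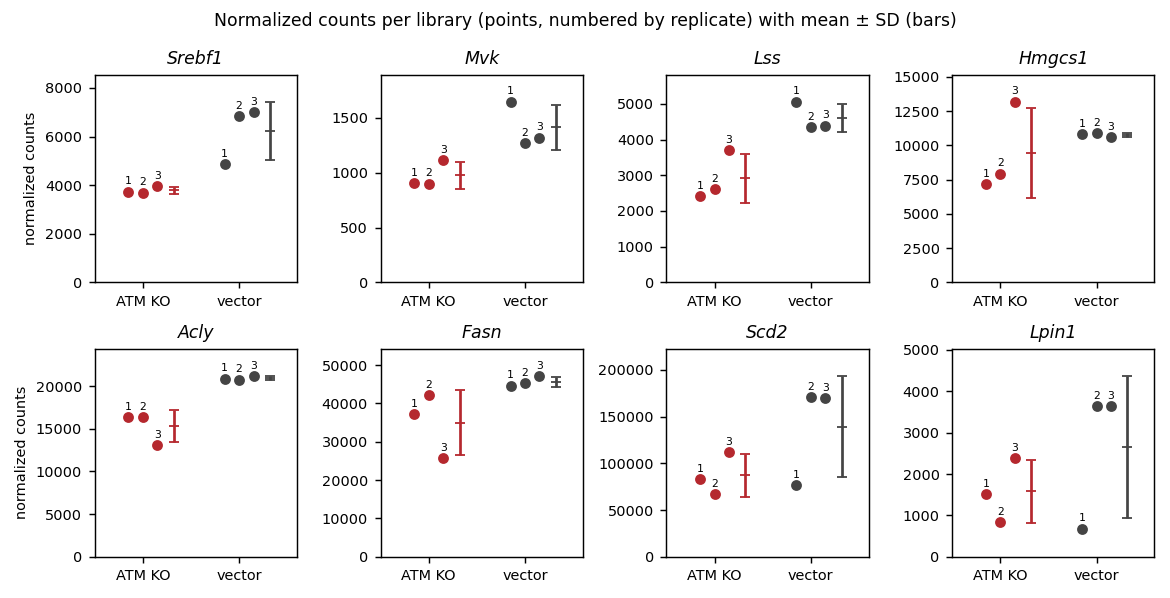
Normalized counts of 8 members in each library, with the replicate number over each point and the group mean ± SD beside the points (n = 3 per group); each panel starts at 0. The groups do not overlap for Srebf1, Mvk, Lss, Acly and Fasn, while ATM KO 3 is the highest library for Hmgcs1 and vector control 1 falls among the ATM KO libraries for Scd2 and below them for Lpin1.

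After squalene, 8 of 10 members had log2 differences below 0, where 51.4% of all genes tested did, and the median was -0.26. Lss, lanosterol synthase, which closes the sterol rings (chromosome 10, 76531588 to 76557138, plus strand), had 2410.1, 2619 and 3701 normalized counts in ATM KO 1 to 3, against 5059, 4345 and 4388 in vector controls 1 to 3. The groups did not overlap, with a log2 difference of -0.68 (SE 0.20), an unadjusted p of 0.0128 by limma and an adjusted p of 0.322 by DESeq2, within a range of 0.303 to 1.00 over all alternatives. Nsdhl, which removes carbon groups from the sterol ring, had 1265, 1298 and 1836 normalized counts in ATM KO 1 to 3, against 2081, 2060.5 and 2073 in vector controls 1 to 3. The controls were nearly equal while each ATM KO library lay lower, with a log2 difference of -0.52 (SE 0.19).

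Sqle, squalene epoxidase, a rate-limiting step of the branch, differed from these. Its values were 5219.7, 4987 and 7656 in ATM KO 1 to 3 and 6166, 6077 and 5888 in vector controls 1 to 3, with ATM KO 3 above and ATM KO 1 and 2 below controls that were close together, and a log2 difference of -0.049 (SE 0.19). Cyp51 and Msmo1, which demethylate lanosterol and its products, also had ATM KO 3 highest among the ATM KO libraries, with log2 differences of -0.18 and -0.34. Dhcr7, which makes cholesterol in the last step, had a log2 difference of -0.47, Tm7sf2, a sterol reductase, -0.49, and the sterol carrier Stard4 -0.44, and all of these were low in vector control 1 too.

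Besides Insig1, described above, the members that lay higher in ATM KO cells were Ebp and Hsd17b7, and both were uneven. Ebp, the sterol isomerase, had 1637, 1898 and 1092 normalized counts in ATM KO 1 to 3, against 1536, 1005 and 1058 in vector controls 1 to 3, and vector control 1 lay within the range of the ATM KO libraries. Ebp had a log2 difference of 0.35 (SE 0.28). Hsd17b7, a reductase of the same stretch, had 913, 1249 and 1202 normalized counts in ATM KO 1 to 3, against 2889, 659 and 610.4 in vector controls 1 to 3. Its vector control 1 was more than 4 times the other controls and all 3 ATM KO libraries lay between, so the difference of 0.079 (SE 0.60) has no stable direction: it was -0.31 by DESeq2 and 0.81 without vector control 1. Sc5d, a desaturase of the sterol ring, had 3103, 3757 and 2905 normalized counts in ATM KO 1 to 3, against 3968, 3054 and 2909 in vector controls 1 to 3. The groups overlapped, and its log2 difference of -0.019 (SE 0.19) was the smallest of the segment.

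In the fatty acid branch all 12 members had log2 differences below 0, where 51.4% of all genes tested did. Their median was -0.48, beside -0.35 for the 19 of the sterol branch. Acly, ATP citrate lyase, which supplies cytosolic acetyl-CoA to both branches (chromosome 11, 100476353 to 100528000, minus strand), had 16355, 16374 and 13115 normalized counts in ATM KO 1 to 3, against 20864, 20752 and 21183 in vector controls 1 to 3. The controls spanned little, every ATM KO library was lower and ATM KO 3 was the lowest, with a log2 difference of -0.46 (SE 0.14). Acaca, acetyl-CoA carboxylase, which makes malonyl-CoA, had 2653, 2718 and 1784 normalized counts in ATM KO 1 to 3, against 3046, 3455 and 3503 in vector controls 1 to 3. Fasn, the fatty acid synthase (chromosome 11, 120805846 to 120824547, minus strand), had 37152, 42130.3 and 25718 normalized counts in ATM KO 1 to 3, against 44608, 45255 and 47152 in vector controls 1 to 3. For Acaca and Fasn too the groups did not overlap and ATM KO 3 was the lowest library. Their log2 differences were -0.51 (SE 0.20) and -0.41 (SE 0.20), and without ATM KO 3 they were -0.31 and -0.21.

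Me1, malic enzyme, which supplies NADPH for synthesis, had values of 1221, 1515 and 951 in ATM KO 1 to 3 and 1285, 1307 and 1343 in vector controls 1 to 3, with ATM KO 2 above every control. Acss2, which makes acetyl-CoA from acetate, had 1428, 1327 and 1446 in ATM KO 1 to 3 and 1258, 2498 and 2558 in vector controls 1 to 3, so the lowest library of all was vector control 1 and the log2 difference of -0.52 became -0.85 without it.

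Desaturation and elongation genes had a median log2 difference of -0.36. Fads2, the delta-6 desaturase of polyunsaturated fatty acids, had 3474, 3622 and 3912 normalized counts in ATM KO 1 to 3, against 4353, 5694 and 5573 in vector controls 1 to 3, without overlap and with a log2 difference of -0.50 (SE 0.16). Scd2, a stearoyl-CoA desaturase, had 83044, 66691 and 111759 normalized counts in ATM KO 1 to 3, against 76903, 171115 and 170062 in vector controls 1 to 3. Its close relative Scd1 had 5075, 3845 and 7487 normalized counts in ATM KO 1 to 3, against 4675, 10546 and 10361 in vector controls 1 to 3. In both, vector controls 2 and 3 were more than 2 times vector control 1, which lay among the ATM KO libraries, so that the differences of -0.62 (SE 0.37) and -0.60 (SE 0.39) rest on those controls and became -1.0 and -0.99 without vector control 1. Scd1 and Scd2 are near copies in 1 cluster on chromosome 19, and reads may be shared between them.

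Fads1, the delta-5 desaturase beside Fads2 in the genome, was lowest in vector control 1 (1742, against 4445 and 4358 in the other controls), and its log2 difference of -0.19 turned to 0.040 without vector control 2 and 0.025 without vector control 3. The elongases Elovl5 and Elovl6 had log2 differences of -0.22 and -0.098, and that of Elovl6 turned to 0.23 without vector control 1. Lpin1, the phosphatidate phosphatase that channels fatty acids into glycerides, was the most variable member, at 1518, 845 and 2375 in ATM KO 1 to 3 and 678, 3648 and 3645 in vector controls 1 to 3. Its SE of 0.74 exceeded the log2 difference of -0.52.

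**Figure D3:**
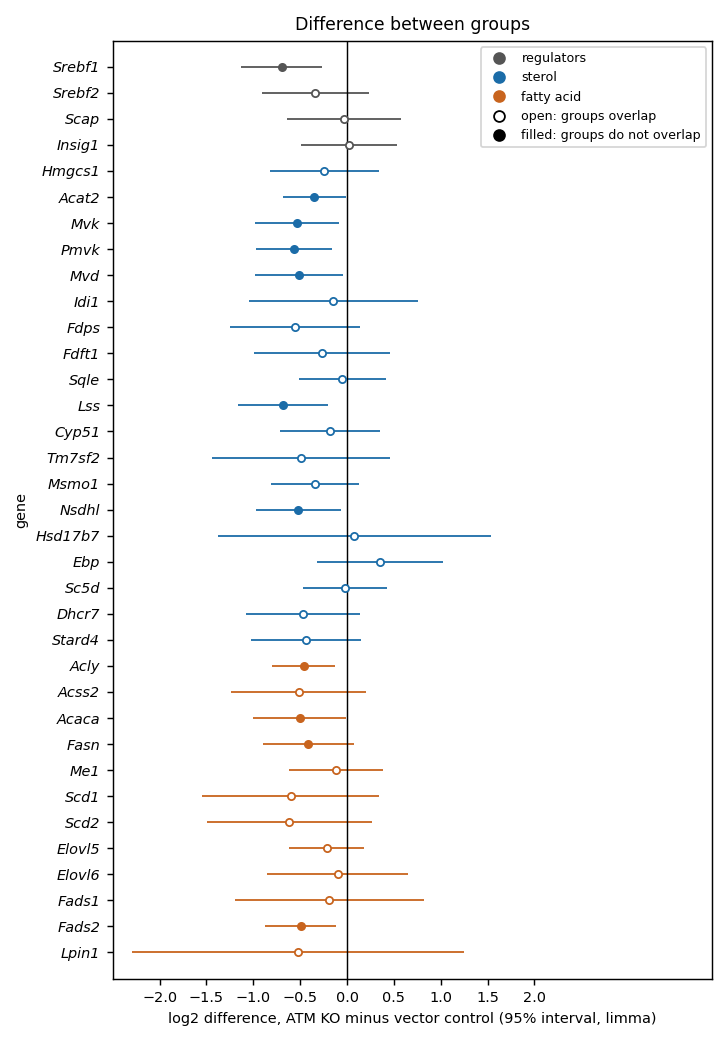
Log2 difference of each member between ATM KO and vector control cells with its 95% interval from limma (3 libraries per group); filled points mark genes in which the groups do not overlap. Only 3 points lie above 0, and 10 intervals lie wholly below 0 before any adjustment for the number of genes tested.

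Within the ATM KO group, segments of the pathways lay on different sides in ATM KO 3. Relative to the mean of ATM KO 1 and 2, ATM KO 3 was higher for all 8 members of the mevalonate segment, by a median of 0.48 on the log2 scale, and for 7 of the 10 steps after squalene, with a median over the 10 of 0.36. Over all genes tested this median was 0.0063. For fatty acid supply and synthesis ATM KO 3 was lower in 4 of 5 members, with a median over the 5 of -0.52, and for desaturation and elongation it was higher in 4 of 6, with a median of 0.36. Hmgcs1 (0.80), Fdft1 (0.74) and Fdps (0.73) had the highest values of the sterol branch and Fasn (-0.62) and Acaca (-0.59) the lowest of fatty acid synthesis, all as the log2 value of ATM KO 3 minus that of the other ATM KO libraries.

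Set side by side per library, the median deviation of the sterol branch was -0.36, -0.32 and 0.056 in ATM KO 1 to 3 and 0.21, 0.14 and 0.18 in vector controls 1 to 3. The median of the fatty acid branch was -0.21, -0.19 and -0.20 in ATM KO 1 to 3 and 0.016, 0.35 and 0.34 in vector controls 1 to 3. Every ATM KO library thus had a lower median than every control in both branches. Over all genes tested the median was 0.015, -0.0081 and 0.00095 in ATM KO 1 to 3 and -0.00088, 0.0059 and 0.0078 in vector controls 1 to 3. The members were chosen with earlier results known and are not independent of each other. The sterol branch came closest to overlap through ATM KO 3 and the fatty acid branch through vector control 1. The difference of the branch medians, sterol minus fatty acid, was 0.13 and turned to -0.12 without ATM KO 3, so these libraries give no order of the branches.

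**Figure D4:**
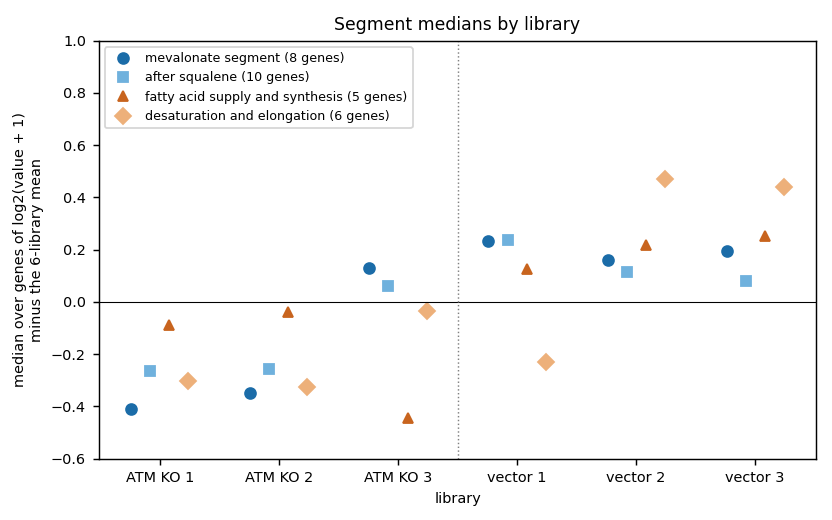
Median deviation, on the log2(value + 1) scale, of the members of 4 segments in each library, relative to each gene's mean over 6 libraries. In ATM KO 3 the sterol segments lie above 0 and fatty acid supply and synthesis at its lowest, and in vector control 1 desaturation and elongation genes lie below 0, apart from the other controls.

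Vector control 1 stood apart for some members and not for others. It stood at least 1 log2 unit from the mean of the other controls in 7 members (Hsd17b7 above, and Lpin1, Fads1, Tm7sf2, Scd1, Scd2 and Acss2 below), which is 20% of them, against 28.7% of all genes tested. Acly, Me1, Hmgcs1, Sqle, Cyp51, Nsdhl and Insig1 differed by at most 0.044 between vector control 1 and the others, in either direction. Leaving vector control 1 out gave 22 members with every ATM KO library below both remaining controls and 4 with every one above, where 21.8% and 19.6% of all genes did. Leaving ATM KO 3 out gave 18 below and 1 above, where 9.42% and 9.09% of all genes did. With vector controls 2 and 3 averaged and used as 1 sample, 32 members were below 0, where 51.8% of all genes were, and in 11 every ATM KO library lay below every control, where 6.23% of all genes did.

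Levels can be compared between genes only per length of exon. Per kilobase of annotated exon, Scd2 had a mean of 20729 normalized counts over the 6 libraries and stood above 99.9% of the genes listed. Fasn had 3685 and Acly 3430.1 per kilobase, next in order, and then came Hmgcs1 with 2202. At the low end were Idi1, with 32.7 per kilobase, and Tm7sf2, with 59.8. Mvk and Lss, whose groups did not overlap, had 447 and 348 per kilobase.

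Other genes of the pathway, named from textbook roles, had medians nearer to that of all genes. The 7 genes of SREBP processing and sterol sensing (Insig2, the proteases encoded by Mbtps1 and Mbtps2, and the ubiquitin machinery of the endoplasmic reticulum) had 2 log2 differences above and 5 below 0, with a median of -0.029. Of 10 genes for sterol receptors, movement and storage 7 were above and 3 below 0, with a median of 0.027. Of 8 genes of isoprenoid side branches 3 were above and 5 below 0, with a median of -0.06. Of 21 genes of fatty acid supply, elongation, activation and esterification 6 were above and 15 below 0, with a median of -0.12. From that list, Slc25a1 and Acsl3 were named after their values were seen. Slc25a1, the mitochondrial carrier that exports citrate for Acly, had 3080.0, 3085 and 3157 normalized counts in ATM KO 1 to 3, against 2988, 5385 and 5356 in vector controls 1 to 3, and a log2 difference of -0.51 (SE 0.25). Acsl3, which activates fatty acids, had 3702, 3601 and 4100.4 normalized counts in ATM KO 1 to 3, against 4089.8, 6480.4 and 6202 in vector controls 1 to 3, and a log2 difference of -0.53 (SE 0.21). In both genes vector control 1 lay near or within the range of the ATM KO libraries. None of the 46 genes passed limma, edgeR or DESeq2 over all genes (0 each), and 1 had an unadjusted p under 0.05 by each of the 3 tools, where 4.16% of all genes did by limma, 4.3% by edgeR and 5.9% by DESeq2. In 3 of these genes (Osbp, Pdss2 and Gpam) every ATM KO library lay below every control, where 5.48% of all genes did, so both counts are near or under the background.

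Promoters are described as a property of the genes, and a link between their motifs and the differences above was not tested. The RefSeq windows on GRCm38.p6 reach from 250 bases before to 50 bases after a start listed for a gene. Such a start can lie within the gene, as for Acaca. Of the 35 members, 28 had at least 1 window. Both strands were searched for TCACNCCAC, a form of the sterol regulatory element, for CCAAT, the core of the NF-Y site, for GGGCGG, an Sp1 site, and for CACGTG, an E-box, with overlapping matches counted apart. CCAAT was found for 22 of 28 members (78.6%), for 14 of 15 with a window in the sterol branch, 5 of 9 in the fatty acid branch and 3 of 4 regulators, while 37.4% of all 32851 windows held it, as did at least 1 window of 43.7% of the tested genes. GGGCGG was found for 22 members (78.6%), against 35.7% of all windows and 70.7% of tested genes, and CACGTG for 6 (21.4%), against 7.15% and 12%. TCACNCCAC in this strict form was found for 1 member, Hmgcs1, against 1.24% of all windows and 1.33% of tested genes. A match is a run of letters in a window and not a measured site.

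The windows of Hmgcs1, the only one with the sterol element, and of Mvk, Nsdhl and Fasn are printed 5′ to 3′ on the strand of the gene. Among members without overlap, Mvk had the most CCAAT matches in the mevalonate segment, Nsdhl after squalene and Fasn in the fatty acid branch. Capitals mark TCACNCCAC and CCAAT or its reverse complement, ATTGG. They lie at chr13:119690101-119690400, plus strand for Hmgcs1, chr5:114444019-114444318, plus strand for Mvk, chrX:72918271-72918570, plus strand for Nsdhl and chr11:120824498-120824797, minus strand for Fasn.
Hmgcs1: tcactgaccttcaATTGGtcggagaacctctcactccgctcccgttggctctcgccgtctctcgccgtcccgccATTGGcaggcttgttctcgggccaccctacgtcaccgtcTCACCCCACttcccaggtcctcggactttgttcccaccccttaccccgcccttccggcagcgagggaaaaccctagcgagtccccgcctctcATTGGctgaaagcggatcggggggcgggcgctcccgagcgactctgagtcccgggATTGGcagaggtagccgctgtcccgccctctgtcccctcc
Mvk: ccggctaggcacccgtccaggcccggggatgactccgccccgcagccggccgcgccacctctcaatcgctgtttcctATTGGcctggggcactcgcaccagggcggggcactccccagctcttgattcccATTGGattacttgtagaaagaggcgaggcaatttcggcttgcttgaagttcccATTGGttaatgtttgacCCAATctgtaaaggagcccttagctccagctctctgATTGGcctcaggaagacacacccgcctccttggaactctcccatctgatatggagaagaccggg
Nsdhl: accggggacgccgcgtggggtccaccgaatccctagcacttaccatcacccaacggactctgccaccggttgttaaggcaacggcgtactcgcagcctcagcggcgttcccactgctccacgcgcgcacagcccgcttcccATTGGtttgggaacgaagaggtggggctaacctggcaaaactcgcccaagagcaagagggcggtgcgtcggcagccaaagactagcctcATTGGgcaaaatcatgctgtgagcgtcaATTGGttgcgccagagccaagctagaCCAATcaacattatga
Fasn: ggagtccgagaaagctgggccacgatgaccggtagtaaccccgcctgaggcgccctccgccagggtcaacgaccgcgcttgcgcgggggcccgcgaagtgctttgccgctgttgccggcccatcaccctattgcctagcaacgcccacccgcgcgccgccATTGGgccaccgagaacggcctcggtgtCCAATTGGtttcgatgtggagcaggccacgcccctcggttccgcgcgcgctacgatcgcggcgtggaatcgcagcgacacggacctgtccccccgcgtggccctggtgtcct
The element of Hmgcs1 lies 137 bases before the start, beside 4 matches to CCAAT, all on the reverse strand. Mvk had 5 matches to CCAAT and Nsdhl had 4. In Fasn 2 of its 3 matches overlap on opposite strands, 62 and 59 bases before the start. Acat2, Acaca and Fads2, also without overlap between the groups, had 0 matches to CCAAT in their windows. The only window of Acaca, chr11:84195188-84195487, lies within the gene, which spans 84129672 to 84401651 on the plus strand. The sequence at the annotated start of Acaca was therefore not searched. Ebp and Hsd17b7, with log2 differences above 0, had 2 and 3. The printed windows thus do not stand for all members without overlap.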

How the data were processed

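RNA of 3 ATM KO and 3 vector control libraries of 4T1 cells was extracted with RNeasy Plus kits and made into Illumina libraries, per the labels' protocols, and groups were taken from the sample titles. The submitters' processing notes name STAR, HTSeq, SAMtools, cutadapt, Trim Galore and DESeq2, and the builds mm9 and GRCm38, without versions or roles. The deposited signal per gene is the authors' read count over a factor set for each library, as inferred from the numbers themselves. In each library 100% of values were whole multiples of 1 step within 0.01 reads, and the reads were recovered from that step. The sources used here do not state strand use.

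The main test was limma 3.58.1 (R 4.3.3, 2-sided, empirical Bayes, variance trend) on log2(value + 1), over the 12149 genes with a mean value of at least 10, with Benjamini-Hochberg adjustment over all of them and a threshold of 0.05. The recovered reads were also given to DESeq2 1.42.0 and to the quasi-likelihood test of edgeR 4.0.16. The default limma, edgeR and DESeq2 fits were also run on data simulated at the spread of these libraries. There each tool missed most 2-fold changes. The alternatives named next were not run on simulated data. Other alternatives were pseudocounts of 0.5 and 8, no filter, a minimum mean of 50, equal upper quartiles, equal totals, a replicate block and each library left out in turn; averaging vector controls 2 and 3 was added after the data were seen. Gene coordinates and exon lengths come from GENCODE M21 on GRCm38, which holds 13249 of the gene IDs. All 35 members are accounted for. Values per library are given for members that pass a test or whose groups do not overlap, for the 3 largest and 3 smallest differences, and for Srebf1, Srebf2, Scap, Insig1, Sqle, Hmgcs1, Fasn, Acaca, Scd1 and Scd2. The members, lists, motifs and tests were chosen with earlier results of these data known.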

Additional observations from a re-analysis of the deposited data

How the results depend on the processing

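The number of members called was 0 of 35 under every alternative, which is no sign of stability where the whole table had 0 calls, and 28 to 33 members were below 0. The number of genes called over the whole table was 0 by limma under each setting and by edgeR, and 84 by DESeq2. With 1 library left out at a time, the sterol median ranged from -0.52 to -0.32 (main value -0.35), the fatty acid median from -0.60 to -0.37 (main value -0.48), their difference from -0.12 to 0.18 (main value 0.13), and the members with every ATM KO library below every control from 11 to 22. The 22 came without vector control 1, where 21.8% of all genes lay so, against 5.48% with all libraries. The fatty acid median was -0.38 with vector controls 2 and 3 as 1 sample. Hsd17b7 turned to -0.31 by edgeR and by DESeq2 and to -0.29 with the averaged controls, which turned Fads1 to 0.033, and equal totals turned Sc5d to 0.017 and Scap to 0.0029. With 1 library left out, 9 members crossed 0: Sqle (-0.24 to 0.065), Sc5d (-0.13 to 0.12), Elovl6 (-0.27 to 0.23), Idi1 (-0.32 to 0.16), Hsd17b7 (-0.31 to 0.81), Me1 (-0.28 to 0.053), Scap (-0.16 to 0.22), Insig1 (-0.17 to 0.21) and Fads1 (-0.64 to 0.040). The cause was not tested. Scaling to equal totals moved the median of all genes to 0.027, with 30 members below 0.

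Same-numbered libraries' deviations from their group means correlated at -0.021, -0.58 and 0.53. Those of ATM KO 2 and vector control 1 correlated at 0.61 and those of ATM KO 3 and vector control 2 at 0.53. With 3 libraries per group these correlations depend on each other, so they cannot tell whether libraries were prepared in pairs. With the replicate block 0 genes and 0 members were called, as without it, and 3 members instead of 10 were lower at an unadjusted p under 0.05, where the share of all genes was 0.56% instead of 1.39%. The lowest value of a member in any library was 79.6 normalized counts, for Idi1 in ATM KO 1.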

Other observations

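Scd3 and Scd4, in the same cluster as Scd1 and Scd2, and the other genes here were picked for their values. Scd3 stood at 45.3, 21.2 and 72.9 in ATM KO 1 to 3 and 13.6, 54.2 and 42.0 in vector controls 1 to 3, and Scd4 at 41.1, 20.2 and 52.5 in ATM KO 1 to 3 and 14.6, 51.3 and 63.0 in vector controls 1 to 3. Acacb, the mitochondrial acetyl-CoA carboxylase, was at 378, 164 and 316 in ATM KO 1 to 3 and 52.5, 828 and 906 in vector controls 1 to 3, the lowest in vector control 1 by a wide margin. Other lipid genes were high in vector control 1 and, among the ATM KO libraries, in ATM KO 2. The prenyl diphosphate synthase subunit Pdss1 stood at 292, 534 and 149.7 in ATM KO 1 to 3 and 860.2, 134 and 159.7 in vector controls 1 to 3, the sterol-responsive membrane protein Tmem97 at 644, 1317 and 273 in ATM KO 1 to 3 and 1967, 658 and 634 in vector controls 1 to 3, and Erlin1 of the endoplasmic reticulum at 1543, 2437 and 1031 in ATM KO 1 to 3 and 3285, 1485 and 1376 in vector controls 1 to 3.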
